A study of Arabidopsis thaliana with 8 samples.

Results

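The response of Arabidopsis thaliana seedlings to the hormone abscisic acid (ABA) was described across all genes by setting the 2 libraries of ABA-treated plants against the 2 libraries of mock-treated plants, 4 of the 8 libraries of the series. Wild-type seedlings of the Columbia ecotype grew on MS medium in continuous light at 22 °C. At 10 days of age they received 50 μM ABA for 3 h or a mock treatment. The labels give neither the composition nor the duration of the mock treatment. The other 4 libraries, which received phaseic or dihydrophaseic acid, served only to estimate the spread between duplicates. RNA came from whole seedlings, so each value is a mean over all organs, and fewer cells of a type cannot be told apart from less RNA per cell. The labels call the 2 libraries of a group biological duplicates and do not say how many seedlings each pooled.

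ABA is the hormone of water deficit, seed maturation and dormancy. It binds soluble receptors of the PYR/PYL/RCAR family, the receptor with its ligand blocks clade A protein phosphatases 2C (PP2C), and SnRK2 kinases freed from these phosphatases phosphorylate bZIP factors of the ABF group. These factors bind the ABA response element, whose core is ACGTG, in the promoters of their targets. Among the known targets in vegetative tissue are genes of hydrophilic protective proteins, of compatible solutes and of the pathway's own negative regulators.

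Every gene row of the deposited ABA against mock table was used, 32678 rows in all, after the rows of unassigned reads were left out. At least 1 read fell on 24069 of these genes in the ABA or mock libraries, and 19616 of them, whose normalized counts averaged 10 or more, were tested. A normalized count is a read count divided by the size factor of its library, and single libraries were recovered from the deposited group means. Reads on genes numbered 15934091 and 11468318 in the ABA libraries and 13048404 and 12655341 in the mock libraries. Below, values of a group are given with the library of larger size factor first, and these are called the larger and the smaller library. A gene was called when its limma adjusted p was under 0.05 and its change at least 2-fold on the log2(normalized count + 1) scale. Errors after ± are standard errors of the log2 fold change with 2 libraries a group.

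The promoters of the 4 genes that rose most and of the 2 that fell most on the log2 scale are shown first, because the ABA response element core was the sequence feature searched in all promoters. Each sequence is the 250 bases before the annotated gene start on the gene's own strand, from the RefSeq TAIR10.1 assembly, with cores on either strand (ACGTG or its complement CACGT) in capitals.
LEA7 AT1G52690 chr1:19619474-19619723 (+): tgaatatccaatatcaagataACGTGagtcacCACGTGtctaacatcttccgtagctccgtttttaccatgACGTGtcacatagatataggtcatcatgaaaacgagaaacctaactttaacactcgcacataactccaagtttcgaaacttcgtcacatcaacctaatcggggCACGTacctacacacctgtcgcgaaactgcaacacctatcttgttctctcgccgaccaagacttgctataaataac
KIN1 AT5G15960 chr5:5209467-5209716 (+): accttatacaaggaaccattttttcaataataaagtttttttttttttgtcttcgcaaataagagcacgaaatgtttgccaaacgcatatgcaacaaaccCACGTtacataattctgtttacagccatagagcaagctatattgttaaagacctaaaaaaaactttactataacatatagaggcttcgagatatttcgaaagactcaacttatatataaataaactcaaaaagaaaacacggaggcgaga
HAI3 AT2G29380 chr2:12608425-12608674 (+): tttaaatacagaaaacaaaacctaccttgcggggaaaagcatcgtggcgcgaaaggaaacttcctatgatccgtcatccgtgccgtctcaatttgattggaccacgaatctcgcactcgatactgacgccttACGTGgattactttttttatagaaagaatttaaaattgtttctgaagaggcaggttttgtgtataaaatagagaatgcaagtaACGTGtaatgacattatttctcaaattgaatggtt
BGLU24 AT5G28510 chr5:10484074-10484323 (-): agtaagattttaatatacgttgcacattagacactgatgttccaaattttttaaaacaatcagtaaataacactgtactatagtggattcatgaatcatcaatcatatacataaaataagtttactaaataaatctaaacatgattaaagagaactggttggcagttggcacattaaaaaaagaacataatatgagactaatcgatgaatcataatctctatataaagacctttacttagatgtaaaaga
IRT1 AT4G19690 chr4:10707094-10707343 (+): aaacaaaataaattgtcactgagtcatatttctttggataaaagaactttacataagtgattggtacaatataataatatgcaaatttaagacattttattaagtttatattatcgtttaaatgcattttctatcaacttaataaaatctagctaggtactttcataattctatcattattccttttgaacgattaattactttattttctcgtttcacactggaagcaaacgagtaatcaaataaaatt
CYP735A2 AT1G67110 chr1:25065447-25065696 (-): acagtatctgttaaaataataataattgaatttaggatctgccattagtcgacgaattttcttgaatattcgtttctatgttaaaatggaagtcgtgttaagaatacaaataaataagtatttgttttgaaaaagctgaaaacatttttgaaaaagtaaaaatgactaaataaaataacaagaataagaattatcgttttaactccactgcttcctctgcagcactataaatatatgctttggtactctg
LEA7, a late embryogenesis abundant (LEA) protein, had 4 cores in this window, HAI3, a clade A PP2C, had 2 and KIN1, a small cold- and ABA-responsive protein, had 1. KIN1 lies beside a near copy, KIN2, and how their shared reads were counted is not known, so its value is uncertain. The windows of BGLU24, a beta-glucosidase, of the iron transporter IRT1 and of CYP735A2, a cytokinin hydroxylase, held no core.

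ABA changed 2141 of the 19616 genes tested, 10.9% of them. Higher with ABA were 1531 genes, 7.80% of those tested, and lower were 610, or 3.11%. The counts of each list and family below are to be set beside these shares. The median log2 fold change was 1.87 among the called higher genes and -1.46 among the called lower ones, against -0.00 over all genes tested. At least 4-fold changes were reached by 697 higher and 144 lower genes, at least 8-fold changes by 354 and 47, and at least 16-fold changes by 169 and 23. A further 2054 genes lay higher with ABA and a further 2161 lower with an adjusted p under 0.05 and less than 2-fold, so that smaller shifts were about as frequent downward as upward. The ABA and mock values of all called genes did not overlap. A 2-fold call with 2 libraries a group nearly ensures this, so it adds no support.

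**Figure D1:**
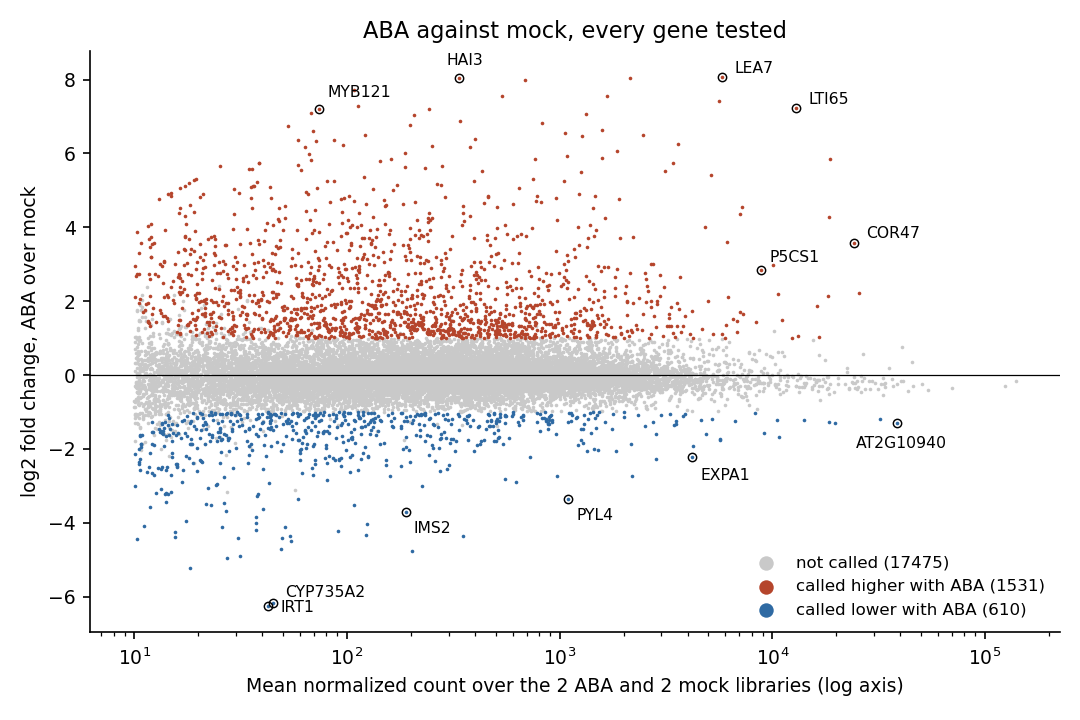
Each point is 1 of the 19616 genes tested, with its mean normalized count over the ABA and mock libraries on the horizontal axis (log scale) and its log2 fold change, ABA over mock, on the vertical axis. Red points are the 1531 genes called higher, blue points the 610 called lower, and labelled circles are genes described in the text. The folds of IRT1, CYP735A2 and MYB121, which had no read in 1 group, depend on the pseudocount.

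The authors' deposited table, with the same 2-fold limit, called 1419 genes higher and 447 lower. It shared 1378 of the higher calls, 90.0% of those made here and 97.1% of its own. For lower genes it shared 430, or 70.5% of those made here and 96.2% of its own. In all 4 fits that left out 1 ABA or mock library, 1112 of the higher calls (72.6%) and 322 of the lower calls (52.8%) were made again. The mock libraries lay farther apart than the ABA libraries, with an SD of the log2 difference of 0.226 between the ABA pair and 0.324 between the mock pair. At least 2-fold between the duplicates lay 49 genes in the ABA pair and 231 in the mock pair, among genes with a group mean of at least 50. Markers of root hair cells moved with this gap. The 12 markers summed to 754 and 992 normalized counts in the ABA libraries and to 2050 and 506 in the mock libraries; the larger mock library held the highest level of the 4 and the smaller mock library the lowest. Of 11 tested markers 1 was called higher, and without the smaller mock library 5 were called lower. Of the genes called lower, 64 were at least 2-fold higher in the larger mock library than in the smaller, and 4 were at least 2-fold higher in the smaller. The part of this gap in the lower calls was not tested. Without the larger mock library 432 of the 610 lower calls were made again, and without the smaller 513.

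The genes called higher took 11.01% and 11.04% of all gene reads in the ABA libraries, against 2.69% and 2.95% in the mock libraries. The genes called lower took 1.47% and 1.51% in the ABA libraries and 4.23% and 3.78% in the mock libraries. By level in mock, calls higher made 12.2% of genes at 10 to 100 normalized counts, 4.71% at 100 to 1000, 2.66% at 1000 to 10000 and 0.794% above 10000. Calls lower made 5.11%, 2.26%, 2.84% and 7.14% of the same classes. The class above 10000 held 126 genes, of which 1 was called higher and 9 lower. Genes under 10 in mock passed the minimum only through their ABA value, and no share is read from those classes. Just above 10 in mock, a gene could miss the minimum only by a fall with ABA, so the 10 to 100 class favours rises. The classes were also sorted by the mock value that enters the fold change. Lists and families below hold genes under 10 in mock among those tested, which can raise their shares of rises.

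The largest gains are given in normalized counts, which are not corrected for length, so that abundant transcripts are favoured. COR47, an acidic dehydrin, had 42069 and 46914 normalized counts in the ABA libraries, against 3743 and 3650 in the mock libraries, and was the largest gain (log2 fold change 3.59 ± 0.09, limma adjusted p = 2.28e-08). LTI78, also known as RD29A, had 34491 and 39136 in the ABA libraries and 568 and 700 in the mock libraries (5.86 ± 0.11). ERD10, another dehydrin, had 33084 and 37210 with ABA and 1803 and 1789 in mock. In each of these genes the duplicates lay close together and far from the other group. LTI65, also known as RD29B, had 26232 and 24838 normalized counts with ABA and 137 and 208 in mock (7.23 ± 0.20). ADC2, an arginine decarboxylase of polyamine synthesis, had 44278 and 39415 with ABA and 7712 and 10344 in mock (2.23 ± 0.14). ENODL2, an early nodulin-like protein, and RD22, a BURP domain protein used as a dehydration marker, rose by 2.13 ± 0.09 and 1.87 ± 0.09 on the log2 scale. COR413-PM1, a cold-regulated membrane protein, and COR15A, a chloroplast LEA protein, rose by 2.99 and 4.54. ERD14, an acidic dehydrin, had 16802 and 18234 with ABA and 3604 and 4034 in mock. Per kilobase of transcript, ERD10 had the highest ABA level of the 10 at 21776 normalized counts, against 1113 in mock. The 20 largest gains together held 3.01% and 3.101% of gene reads in the ABA libraries and 0.428% and 0.551% in the mock libraries.

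The largest losses are given on the same scale. AT2G10940 and AT2G45180, both annotated as proteins of the bifunctional inhibitor/lipid-transfer type, lost most. AT2G10940 had 20422 and 24555 normalized counts in the ABA libraries, against 57279 and 52694 in the mock libraries (-1.29 ± 0.13, limma adjusted p = 6.99e-05). AT2G45180 had 20662 and 18195 with ABA and 47018 and 41961 in mock (-1.20 ± 0.12). The groups did not overlap for either gene, as for all called genes. The tonoplast aquaporins TIP2 and DELTA-TIP were among the 10 largest losses. TIP2 had 8383 and 8563 with ABA and 18236 and 21365 in mock, and DELTA-TIP had 4629 and 4572 with ABA and 13121 and 14308 in mock. XTH4, a xyloglucan endotransglucosylase of cell wall remodelling, fell by 1.22 ± 0.11 on the log2 scale, DGR2, a DUF642 protein, by 1.77 ± 0.08, and the acid phosphatase gene AT5G44020 by 1.73 ± 0.08. AT5G40450, annotated as an A-kinase anchor-like protein, fell by 1.67 ± 0.12. GER1, a germin-like protein, and AT1G72600 lie on opposite strands of the same stretch, with all 931 bases of GER1 inside AT1G72600, and fell by 1.30 ± 0.09 and 1.28 ± 0.10. Without strand their reads cannot be told apart, so these count as 1 loss at most. Within the 20 largest losses lay 0.837% and 0.858% of gene reads in the ABA libraries and 2.38% and 2.12% in the mock libraries.

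**Figure D2:**
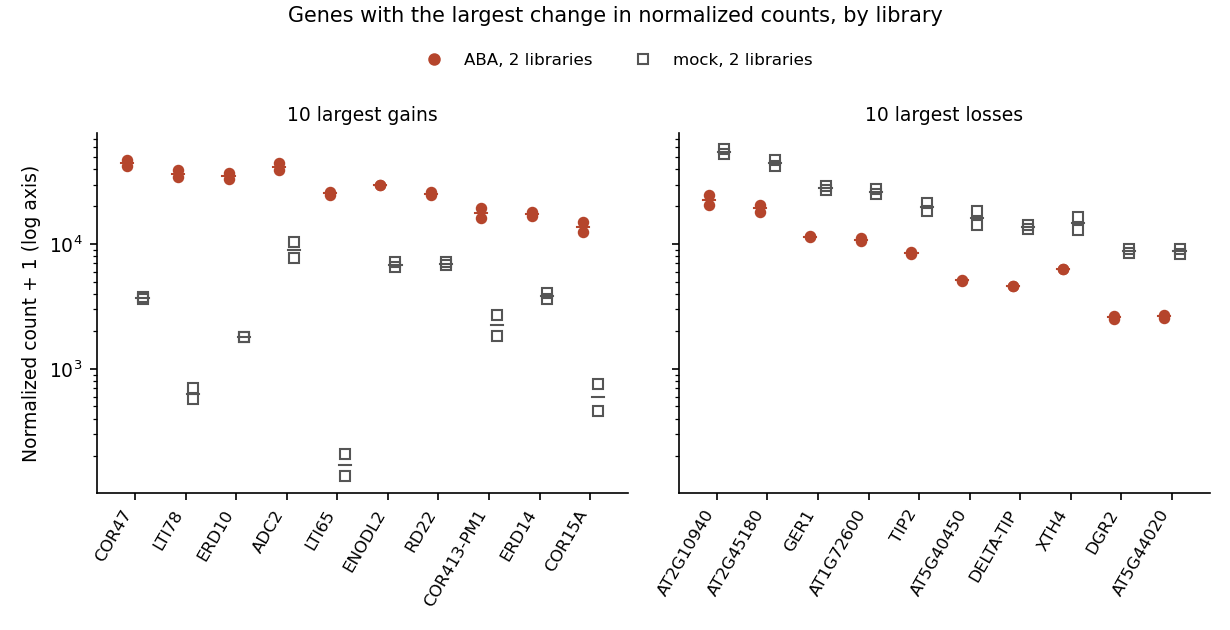
Normalized counts plus 1 (log axis) of the 10 called genes with the largest gain (left panel) and the 10 with the largest loss (right panel) in mean normalized counts, with the 2 ABA libraries as filled circles left of the 2 mock libraries as open squares. Short lines mark the mean of each pair on the log scale. In every gene the ABA pair and the mock pair are separated, as in all called genes, by the widest gap in LTI65.

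Some genes were nearly silent in 1 group. Of the genes with at most 3 reads over both libraries of 1 group and at least 100 in the other, 27 were on with ABA and 4 were off. All were called, which this rule of selection nearly fixes in advance, so the calls add no support. They passed the minimum mean only through the group where they are high. No mock read at all was found for 5 of the 27. CSLG2, a cellulose synthase-like protein, had 291 and 144 reads in the ABA libraries and none in mock, which makes it at least 139.8-fold higher with ABA (floor of 3 reads over the group). MYB121, a MYB transcription factor, had 142 and 140 reads with ABA and none in mock, at least 90.7-fold higher. AT5G24080, a protein kinase, was at least 83.9-fold higher by the same measure. DIP2, annotated as an E3 ubiquitin ligase, had 206 and 163 reads with ABA and 1 and 2 in mock, which gives a ratio of 118.6 (95% interval of the counts 40.3 to 577.8). Also on with ABA were GPAT7, an acyltransferase of suberin synthesis (ratio 156.7, 43.0 to 1299.5), and IDA, the peptide of floral abscission (ratio 140.8, 24.9 to 5599). AT1G52560, a small heat shock protein, had 164 and 97 reads with ABA and 1 in each mock library. These intervals cover counting error only.

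Of the 4 genes that were off, CYP735A2 and IRT1 had no read in the ABA libraries. CYP735A2, which hydroxylates cytokinins to their trans-zeatin form, had 141 and 32 reads in the mock libraries and was at least 59.8-fold lower with ABA. IRT1, the iron uptake transporter of the root surface, had 121 and 42 mock reads and was at least 56.3-fold lower. AT1G05700, a leucine-rich repeat kinase, had 3 and 0 reads with ABA and 86 and 32 in mock, and AT1G29090, a cysteine proteinase, had 2 and 0 with ABA and 70 and 33 in mock. In all 4 the larger mock library held at least 2-fold more reads than the smaller, the order of the root hair markers above. Each call was also made without the larger mock library.

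Clade A PP2C genes, the phosphatases that hold ABA signalling back, all rose. All 9 were tested and all 9 were called higher, against 7.80% of all genes, with a median log2 fold change of 3.37. HAI3 and AHG1 lay under 10 in mock and passed the minimum only through their ABA values. The most responsive were the 3 highly ABA-induced genes. HAI1 had 3178 and 3085 normalized counts in the ABA libraries, against 18.4 and 50.1 in the mock libraries (6.64 ± 0.34, limma adjusted p = 1.1e-06). HAI2 had 2202 and 2039 with ABA and 24.5 and 46.9 in mock. HAI3 had 626 and 717 with ABA and 1.02 and 2.18 in mock, where it had 3 reads in all (ratio 419.5, 95% counting interval 143.2 to 2036.9). AHG1, a phosphatase of seeds and germination, had 38.3 and 35.5 with ABA and 0 and 2.18 in mock. HAB2 rose least, at 1707 and 1624 with ABA and 567 and 599 in mock (1.51 ± 0.08).

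The receptors of ABA moved the other way. Of 10 PYR/PYL/RCAR genes 8 were tested, 5 fell, against 3.11% of all genes, none rose and the median was -1.26. PYL4 had 202 and 184 normalized counts in the ABA libraries, against 2089 and 1892 in the mock libraries (-3.36 ± 0.12, limma adjusted p = 1.22e-07). PYL5 had 22.6 and 15.9 with ABA and 146 and 136 in mock, and PYL2 had 13.9 and 11.02 with ABA and 37.8 and 49.1 in mock. PYR1 and RCAR3, also known as PYL8, fell by 1.27 ± 0.11 and 1.26 ± 0.09. PYL1 lay at -0.88 ± 0.11, under the 2-fold limit, and was called lower without the smaller mock library. PYL7 lay at 0.01 and RCAR1, also known as PYL9, at 0.51. PYL3 and PYL6 lay below the minimum mean and were not tested.

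**Figure D3:**
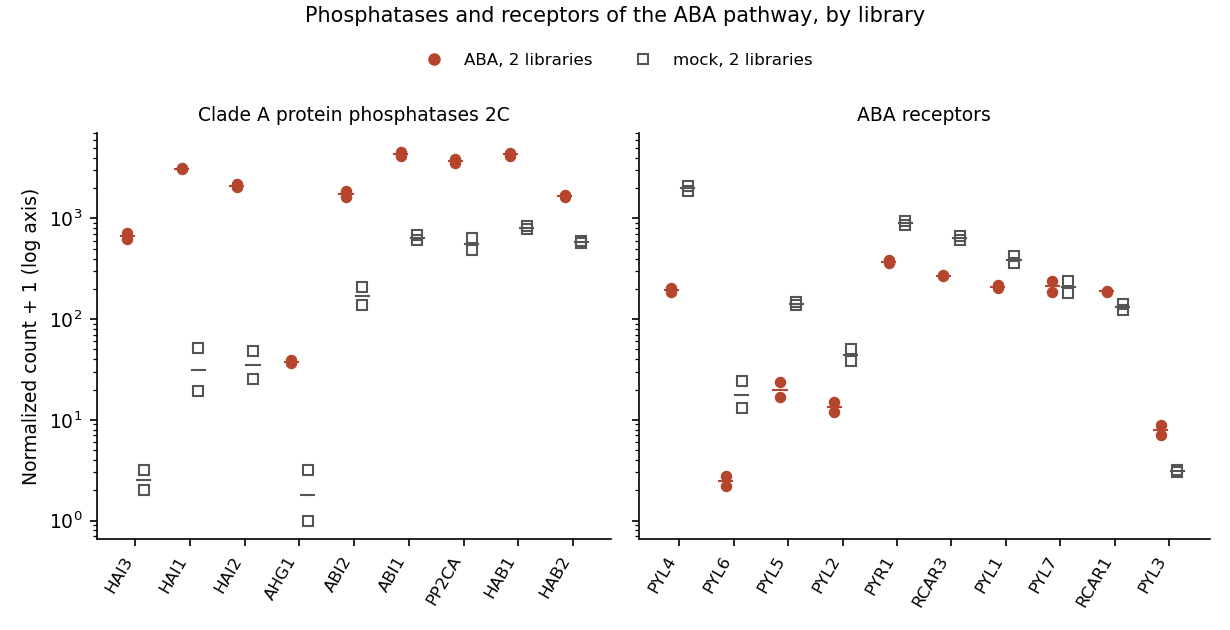
Normalized counts plus 1 (log axis) of the 9 clade A phosphatases (left panel) and the 10 ABA receptors (right panel), with the 2 ABA libraries as filled circles left of the 2 mock libraries as open squares, and short lines at the mean of each pair on the log scale. All 9 phosphatases lie higher with ABA. PYL4, PYL5, PYL2, PYR1 and RCAR3 were called lower with ABA, and PYL3 and PYL6 were not tested.

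Downstream of the SnRK2 kinases acts a kinase cascade headed by MAPKKK17 and MAPKKK18. Both rose, MAPKKK18 to 440 and 474 normalized counts with ABA, against 9.19 and 7.63 in mock (5.61 ± 0.35), and MAPKKK17 to 447 and 476, against 35.8 and 24.0. Of the other 5 genes of the module MPK7 was also called (1.08 ± 0.09), and not with upper-quartile scaling. MKK3, the middle kinase of the cascade, lay at 0.47 ± 0.13. All 4 AFP genes, whose proteins bind and repress the factor ABI5, rose with a median of 2.66. AFP1 had 2810 and 2775 with ABA and 171 and 193 in mock, and AFP3 had 1431 and 1331 with ABA and 55.2 and 134 in mock. TMAC2 rose by 1.39 and AFP2 by 1.09, the last not called without the smaller mock library or with upper-quartile scaling.

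Among 13 ubiquitin ligases linked to ABA, 4 rose and none fell, against 7.80% and 3.11% of all genes. PUB19, a U-box ligase, had 1369 and 1537 normalized counts with ABA and 25.5 and 50.1 in mock (5.30 ± 0.29). AIRP1 and AIRP2, RING ligases that promote ABA responses, rose, AIRP1 to 391 and 420 with ABA against 20.4 and 21.8 in mock, and AIRP2 to 1244 and 1096 with ABA against 104 and 134 in mock. PUB18 (1.56) was not called without either ABA library or the smaller mock library. KEG, RHA2A, PUB12, PUB13 and SDIR1 lay between -0.12 and 0.28. ABCG25, an exporter of ABA, was the 1 called gene of 7 ABA transporters, with 700 and 703 with ABA and 211 and 294 in mock (1.49 ± 0.14). ABCG22 lay at 0.93 ± 0.12 and was called without the smaller ABA library or without the smaller mock library.

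The transcription factor genes in the families and lists used here were called higher more often than genes at large. Annotated names and the lists gave 625 factors, of which 422 were tested. Of these, 94 were called higher (22.3%, against 7.80% of all genes) and 16 lower (3.79%, against 3.11%). The lists, such as that of stress and senescence NAC factors, are not a sample of all factors. Factors under 10 in mock, MYB121 and HSFA6B among them, passed the minimum only through their ABA values. Both limits can raise the share of rises. In the bZIP and G-box group, 5 of 9 tested factors rose and none fell. ABF3 had 2986 and 2970 normalized counts with ABA and 355 and 433 in mock (2.92 ± 0.10, limma adjusted p = 8.5e-08). GBF3, a G-box binding factor, rose as far, to 3000 and 2692 with ABA against 366 and 376 in mock. ABF2 rose by 2.32 and ABF4 by 1.35, while ABF1 (0.38), AREB3 (0.20) and EEL (0.51) were not called. ABI5, the factor of post-germination arrest, had 211 and 194 with ABA and 18.4 and 25.1 in mock (3.17 ± 0.40).

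Stress and senescence NAC factors rose in 10 of 12 cases and the other 2, ATAF2 and NAC083, were not called. RD26 had 2810 and 2673 normalized counts with ABA and 110 and 126 in mock (4.52 ± 0.15). NAC019 had 244 and 228 with ABA and 6.13 and 12.0 in mock (4.62 ± 0.64). NAC032 and NAC047 rose by 3.77 and 3.15, and NAC6, the senescence factor also known as ORE1, by 1.71. NAC016 and NAP, another senescence factor, were lost in some fits, NAP only without the larger mock library. In the NAC family as annotated, 20 of 52 tested genes rose and none fell, with a median of 0.67.

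Class I HD-ZIP factors gave 5 rises and 1 fall. HB-7 had 9259 and 8968 normalized counts with ABA and 514 and 612 in mock (4.02 ± 0.12), and HB-12 had 2532 and 2840 with ABA and 159 and 240 in mock. HB21, which acts in bud dormancy, had 80.9 and 90.6 with ABA and 2.04 and 2.18 in mock, and HB40 rose by 1.99. The call of HB6 (1.00) was lost without the larger library of either group and with upper-quartile scaling. HB52, a factor of hypocotyl and root elongation, fell to 3.48 and 8.57 with ABA, against 30.6 and 27.3 in mock. The other 6 of the 12 tested members lay between -0.97 and 0.30. Among 17 tested heat shock factors 5 rose and none fell. HSFA6B had 466 and 528 with ABA and 5.11 and 6.54 in mock (6.19 ± 0.35), HSFA6A had 933 and 766 with ABA and 26.6 and 39.2 in mock, and HSFB2A, HSFC1 and HSFA1E rose by 2.14, 1.98 and 1.27. HSF1, HSF3 and HSFA1D, which with HSFA1E are the class A1 factors that start the heat response, lay at 0.11, 0.08 and 0.08.

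MYB factors gave 4 of the 10 largest rises among the factors so matched. Beside MYB121 these were MYB41, a factor of cuticle and suberin, with 95.7 and 138 normalized counts with ABA and 1.02 and 0 in mock, and MYB305, with 110 and 142 with ABA and 2.04 and 0 in mock. MYB102 had 432 and 371 with ABA and 9.19 and 22.9 in mock (4.69 ± 0.41). RAP2.6, an ERF factor that the match of names missed and that was chosen after its values were seen, had 1047 and 1086 with ABA and 14.3 and 1.09 in mock (7.56 ± 0.75). Over the MYB family 23 of 110 tested genes rose and 6 fell, or 3 without the larger ABA or the smaller mock library. Of 52 WRKY factors 11 rose, WRKY75 most (3.42 ± 0.44), and WRKY27 alone fell (-1.92 ± 0.41), a call lost without the larger ABA library and in the authors' deposited table. In the AP2/ERF family 17 of 73 rose, among them DREB2A, a drought-responsive factor, with 452 and 367 with ABA and 43.9 and 54.5 in mock, and 5 fell. Without the larger ABA library 10 of the family were called higher, and at a minimum mean of 50 there were 8. Without the smaller ABA library 3 were called lower. The bHLH family gave 5 rises and 3 falls in 93 tested genes, shares of 5.38% and 3.23%, against 7.80% and 3.11% of all genes. Its rises numbered 3 without the larger library of either group and 9 without the smaller mock library. Its fallers included HBI1, a growth-promoting factor, with 737 and 690 with ABA and 3008 and 2903 in mock (-2.05 ± 0.07, limma adjusted p = 1.0e-07).

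LEA genes, whose hydrophilic products accumulate in drying seeds and stressed leaves, rose in 32 of 65 tested cases and fell in 2, of 94 annotated. LEA7 had 11588 and 11550 normalized counts with ABA and 34.7 and 51.2 in mock (8.06 ± 0.18, limma adjusted p = 7.53e-09), LEA4-5 had 3099 and 3545 with ABA and 14.3 and 19.6 in mock, and the dehydrin LTI30 had 10368 and 12014 with ABA and 86.8 and 46.9 in mock. AT5G66780 rose by 6.77. The median over the 65 was 1.17, and 31 were not called. AT2G41990 and AT5G42860, annotated only as LEA proteins, fell by 1.44 and 1.03, AT5G42860 not without the larger library of either group. Of 12 tested seed and embryo markers 7 rose. The list summed to 3198 and 4261 normalized counts with ABA and to 850.0 and 2264 in mock, so the mock libraries lay far apart. Without the smaller mock library 11 rose, and without the larger one 5 rose and 1 fell. EM1 had 355 and 287 with ABA and 7.15 and 10.9 in mock (5.02 ± 0.42), and GEA6, the other EM protein, had 184 and 230 with ABA and 3.06 and 14.2 in mock. OLEO1, OLEO2 and PER1 rose by 1.88, 2.28 and 2.17. The calls of ABI3 and ATS1 were lost in some fits. The storage albumin SESA1 had 19.1 and 17.1 with ABA and 3.06 and 93.8 in mock, and its direction turned with the mock library kept. LEC1 and HSD1 and the 3 pollen markers had no read.

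For galactinol and raffinose, 6 of 8 tested genes rose. GolS2, a galactinol synthase, had 3719 and 3441 normalized counts with ABA and 238 and 310 in mock (3.71 ± 0.13), and GolS4 and GolS1 rose by 2.25 and 1.79. The raffinose synthase gene AT5G40390 rose by 1.18, AT1G55740, of the same family, by 2.37 and SIP2, an alpha-galactosidase that breaks raffinose down, by 2.64. DIN10, annotated in the same raffinose synthase family and known as a gene of darkness and sugar starvation, fell to 567 and 568 with ABA against 3844 and 3742 in mock (-2.74 ± 0.11, limma adjusted p = 2.6e-07). For proline, P5CS1, the stress-responsive enzyme of synthesis, had 14783 and 16026 with ABA and 1630 and 2812 in mock (2.85 ± 0.21) and was the 1 called gene of 10. P5CS2 lay at 0.86 ± 0.07 and ERD5, the proline dehydrogenase, at -0.88 ± 0.12, both at an adjusted p under 0.05 and under the 2-fold limit, and ERD5 was called lower without the smaller mock library.

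Amino acid breakdown showed 5 rises and no fall in 18 tested genes. The bifunctional lysine-ketoglutarate reductase gene AT4G33150, which starts lysine breakdown, had 5043 and 4495 normalized counts with ABA and 568 and 608 in mock (3.02 ± 0.11). MGL, methionine gamma-lyase, rose by 2.54, the gene AT1G21400 of the branched-chain ketoacid dehydrogenase by 2.43, BCAT-2 by 2.17 and the tyrosine aminotransferase TAT7 by 1.42. A further 6 lay higher at an adjusted p under 0.05 without reaching 2-fold, IVD, the isovaleryl-CoA dehydrogenase, among them at 0.77. Trehalose phosphatase genes TPPJ, TPPI, TPPE and TPPD rose by 2.47, 1.38, 1.35 and 1.37 among 16 trehalose genes, TPPD not without the larger library of either group or in the authors' deposited table. The trehalose phosphate synthases TPS1 and TPS5 to TPS11 lay between -0.28 and 0.65. In starch breakdown BAM1, the beta-amylase of stressed leaves and guard cells, had 4520 and 4517 with ABA and 1138 and 1255 in mock (1.92 ± 0.07). BAM5, the other called gene of 18, was lost in every fit that left out 1 library. Chlorophyll breakdown gave 3 rises in 11, with NYE1, the magnesium dechelatase known as SGR1, at 1.38 ± 0.13, ACD1, pheophorbide a oxygenase, at 1.17 ± 0.08 and AT4G11910, a STAY-GREEN-like gene, at 1.46 ± 0.34, the last lost without the larger ABA library.

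Most suberin genes rose. Of 14 genes for the lipid polyester of root endodermis and other barriers, all tested, 12 were called higher and none lower, with a median of 3.29. ABCG6, a half-transporter of suberin precursors, had 625 and 1146 normalized counts with ABA and 46.0 and 17.44 in mock (4.85 ± 0.44). KCS2, a fatty acid elongase, had 3580 and 3726 with ABA and 136 and 133 in mock (4.75 ± 0.20, limma adjusted p = 3.1e-07). GPAT7 had 127 and 219 with ABA and 1.02 and 1.09 in mock. FAR4, GPAT5, RWP1, the feruloyl transferase, and CYP86B1 rose by 3.81, 3.66, 3.52 and 3.06. The smaller ABA library held the higher value in all 12 called members, and in CYP86B1 it held 363 normalized counts against 169 in the larger. The ABA and mock pairs did not overlap in any of the 12, as in all called genes. FAR5, CYP86A1 and ABCG2 were not called without the smaller mock library, and FAR5 and CYP86A1 not without the smaller ABA library. Of the endodermis markers none of 8 tested was called by limma or in the authors' deposited table (1 higher and 0 lower at an unadjusted p under 0.05), with a median of 0.25 and sums of 1446 and 1650 with ABA and 1707 and 1423 in mock. In wax synthesis CER1, an alkane-forming enzyme, had 11690 and 9834 with ABA and 3147 and 3488 in mock (1.69 ± 0.12), MYB96, a wax activator, rose by 1.19 and MYB30 fell to 224 and 244 with ABA against 490 and 511 in mock. The third rise, of WSD1, was lost in every fit that left out 1 library.

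Small heat shock protein genes rose in 7 of 10 tested cases, of 14 in the list. ATHSP22.0 and HSP17.4 lay under 10 in mock and passed the minimum only through their ABA values. The rises of AT1G07400, AT5G51440 and HSP18.2 were lost in fits without 1 library, and 3 rises were called at a minimum mean of 50, where fewer genes were tested. ATHSP22.0 had 240 and 208 normalized counts with ABA and 0 and 1.09 in mock (446 reads against 1, ratio 430.1, 95% counting interval 76.8 to 17026.5), and HSP17.4 had 235 and 162 with ABA and 5.11 and 6.54 in mock (4.85 ± 0.36). AT4G21870, of the same annotated family, fell to 52.2 and 41.6 with ABA against 258 and 256 in mock (-2.44 ± 0.17). HSP101, the large chaperone of acquired thermotolerance, lay at 0.77 ± 0.16 and HSFA2, the heat-induced factor, had 46.1 and 18.4 with ABA and 15.3 and 12.0 in mock, without a call.

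In each family of cell wall growth genes most tested members were not called. Of 29 tested expansins 9 fell and 3 rose (31.0% and 10.3%, against 3.11% and 7.80% of all genes). EXPA1 had 1401 and 1515 normalized counts with ABA and 8186 and 5619 in mock (-2.22 ± 0.16), EXPA8 had 892 and 963 with ABA and 3291 and 3516 in mock (-1.88 ± 0.07), and EXPA15 fell by 1.87. EXPA16 went the other way, with 1368 and 1124 with ABA and 28.6 and 44.7 in mock (5.08 ± 0.22), as did EXLB1 and EXLA1, which are expansin-like, at 2.34 and 1.48. Of 23 xyloglucan endotransglucosylases 8 fell, XTH33, XTH20, XTH31 and XTH8 farthest at -3.22, -2.94, -2.44 and -2.07, and XTH30 and XTH11 rose. The calls of XTH20 and XTH11 were not made in the authors' deposited table. Among 48 pectin lyases and polygalacturonases 12 fell and 3 rose, and among 49 pectin methylesterases and inhibitors 8 fell and 6 rose. ATPMEPCRD had 6.96 and 14.7 with ABA and 167 and 301 in mock (-4.33 ± 0.39), while AT1G23200 of the same annotation had 544 and 451 with ABA and 49.0 and 64.3 in mock. FLA9, a fasciclin-like arabinogalactan protein, fell by 2.27 ± 0.12 and AGP2 rose by 3.08 ± 0.23 in a family of 43 with 7 falls and 2 rises, or 4 falls without the larger ABA library and 4 rises without the larger mock library. Extensins gave 2 of each in 43, and the falls, of AT1G26250 and EXT13, came with 170 and 24.0 and with 862 and 192 normalized counts in the larger and smaller mock libraries. AT1G26250 and EXT13 were not called without the larger mock library or in the authors' deposited table. The extensin counts turned on the mock libraries, with 3 higher and 16 lower calls without the smaller one and 7 higher and 2 lower without the larger one.

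Auxin-induced SAUR genes, many of which promote cell expansion, fell in 12 of 49 tested cases and rose in 4, with a median of -0.69. These shares, 24.5% lower and 8.16% higher, stand against 3.11% and 7.80% of all genes. At an adjusted p alone 24 lay lower and 8 higher. AT4G34770 had 2.61 and 4.90 normalized counts with ABA and 128 and 82.9 in mock (-4.49 ± 0.32), and AT4G34790 had 3.48 and 7.35 with ABA and 76.6 and 73.0 in mock. Of the 4 rises only AT3G12830 was called in every alternative, and of the 4 largest falls only these 2 were called in every alternative that tested them. Aux/IAA repressors gave 1 rise, of IAA28 (1.26 ± 0.12), and 2 falls in 19. Tubulin genes TUB1 and TUB8 fell by 1.12 and 1.01, both lost without the larger ABA library. Of 37 genes matched to aquaporin terms, the seed tonoplast channels BETA-TIP and TIP3;1 rose by 2.63 and 2.11 and NLM1 fell by 2.03 beside TIP2, NLM1 not in the authors' deposited table. DELTA-TIP, which fell by 1.57, was missed by the match of terms and is not among the 37. The third call higher, PIP5K5, is a lipid kinase matched by its symbol.

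Gibberellin and ethylene genes were called in both directions. GA2OX6, which inactivates gibberellin, had 149 and 195 normalized counts with ABA and 26.6 and 15.3 in mock (3.02 ± 0.35), GID1B, a gibberellin receptor, and RGL3, a DELLA repressor, rose by 1.61 and 1.56, and GASA6, a gibberellin-induced peptide, fell to 1841 and 1716 with ABA against 7116 and 6300 in mock (-1.91 ± 0.10). Calls of the 16 tested gibberellin genes numbered 3 higher and 2 lower, and those of 18 ethylene genes 3 and 3, of which 1 lower call was made without the larger mock library. In ethylene, ACS7 had 196 and 143 with ABA and 2.04 and 5.45 in mock (5.25 ± 0.70), ACS2 rose by 2.97, and ACS11 had 0.870 and 3.67 with ABA and 25.5 and 27.3 in mock. These 3 encode isoforms of the rate-limiting synthase. ACO1, an oxidase of the last step, had 27.8 and 29.4 with ABA and 101 and 51.2 in mock, and its fall was not called without the larger mock library or without either ABA library. The receptor ERS2 rose by 1.14, while EIN2, EIN3 and CTR1 lay at 0.06, 0.02 and -0.25. Brassinosteroid genes gave no rise and 1 fall in 14, of BR6OX1, lost without the smaller mock library.

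Glucosinolate genes lay lower with ABA. None of 25 tested rose, 7 were called lower and 19 lay lower at an adjusted p under 0.05, against 2771 of the 19616 genes tested, and the median was -0.64. IMS2, an enzyme of methionine chain elongation, had 26.1 and 24.5 normalized counts with ABA and 432 and 271 in mock (-3.71 ± 0.26, limma adjusted p = 6.5e-06). CYP79F2, which acts on elongated methionine, had 150 and 125 with ABA and 417 and 411 in mock (-1.59 ± 0.13). The calls of BCAT4, IMD1, BAT5, MYB29 and MYB76 were lost without the larger ABA library and without the smaller mock library. The indolic genes CYP79B3 and CYP79B2 lay at -0.91 and -0.54, and the myrosinases TGG1 and TGG2 at -0.23 and -0.02. The thalianol cluster was 1 of 2 runs of at least 4 neighbouring genes called the same way. AT5G47980, CYP705A5, CYP708A2 and THAS1, from 19428888 to 19461706 on chromosome 5 (TAIR10.1), fell by 3.16, 1.90, 1.72 and 1.97. The first is an acyltransferase and the next 2 are cytochromes P450. THAS1, the synthase that makes thalianol in roots, had 90.5 and 115 with ABA and 433 and 373 in mock. The other run, on chromosome 3 from 1635194 to 1652149, held PLDP2, a phospholipase D, the PP2C gene AT3G05640 and the receptor-like proteins RLP32 and RLP33, which rose by 2.45, 2.94, 1.404 and 2.19.

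Mineral nutrition genes moved in part. Beside IRT1, the iron list of 23 tested genes held 4 more falls. NAS1, a nicotianamine synthase, had 505 and 649 normalized counts with ABA and 2194 and 1687 in mock, and NAS4, of the same family, had 273 and 191 with ABA and 625 and 572 in mock. NRAMP1, a metal transporter, fell by 1.54. HA2, a root proton pump, fell by 1.23 and was not called without the larger mock library. BHLH100 and bHLH38, factors of iron deficiency, had 353 and 64.9 and 225 and 60.02 in the ABA libraries, against 64.4 and 69.8 and 51.1 and 51.2 in the mock libraries, so the larger ABA library stood alone and neither was called. The 2 rises of the list, of FER2, a ferritin, and AT1G47400, were lost in some fits without 1 library. In the nitrate list of 15, LBD38, a nitrate-induced repressor, fell by 1.65 ± 0.14 and NRT1.5, the xylem loader, by 1.49. NRT1.8 and GSR 1, a cytosolic glutamine synthetase, rose by 1.79 and 1.03, and both as well as NRT1.5 were lost in some fits. The nitrate reductases NIA1 and NIA2 lay at -0.35 and -0.37. Among guard cell genes GORK, the outward potassium channel, had 372 and 443 with ABA and 105 and 107 in mock (1.93 ± 0.12) and MYB60 fell by 1.05, lost without the larger ABA or smaller mock library. HA1, the main pump of guard cells, lay at 0.13.

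In detoxification and transport families rises outnumbered falls, as they did over all genes (1531 and 610), but the shares of rises were larger. UDP-glycosyltransferases gave 25 rises and 6 falls in 105, glutathione transferases 11 and 2 in 48, cytochromes P450 28 and 8 in 161 and ABC transporters 17 and 6 in 100. In this order the shares of rises were 23.81%, 22.92%, 17.39% and 17%, against 7.80% of all genes tested. The shares of falls were 5.71%, 4.17%, 4.97% and 6%, against 3.11%, and rest on few genes. Members under 10 in mock can raise the shares of rises. Without the smaller mock library the falls of cytochromes P450 numbered 14, and without the larger one those of glutathione transferases 4. UGT74E2, which acts on indole-butyric acid, had 823 and 750 normalized counts with ABA and 4.09 and 16.4 in mock (6.39 ± 0.46). GSTU9 had 792 and 750 with ABA and 22.5 and 16.4 in mock, and CYP94B3, which inactivates jasmonoyl-isoleucine, had 785 and 718 with ABA and 9.19 and 9.81 in mock (6.16 ± 0.26). CYP707A1, an ABA hydroxylase, rose to 2616 and 3063 with ABA against 100 and 94.8 in mock. Among fallers were UGT76C2, a cytokinin glucosyltransferase (-1.52 ± 0.16), and ABCG14, the shoot-ward cytokinin transporter, with 186 and 194 with ABA and 697 and 630 in mock (-1.80 ± 0.16). Of 51 genes of the peroxidase superfamily 8 rose and 5 fell. Fits without 1 library gave 3 (smaller ABA library left out) to 12 (larger mock library left out) rises, and 2 (larger ABA library left out) to 7 (smaller mock library left out) falls. DOX1, an alpha-dioxygenase placed there by annotation, had 12342 and 14549 with ABA and 818 and 518 in mock (4.36 ± 0.19).

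In housekeeping families few genes passed the 2-fold limit. Of 314 ribosomal protein genes 3 rose and 1 fell past 2-fold, and the median was -0.30. At an adjusted p under 0.05 with no fold limit 156 lay lower, against 2771 of the 19616 genes tested, and 5 higher. The 3 rises, of AT3G14595, AT1G53560 and AT5G15260, were of proteins annotated as L18ae or L34e family. None of 46 nuclear photosystem genes was called by limma or in the authors' deposited table, also without a fold limit, and at an unadjusted p under 0.05 none lay higher and 9 lower, with log2 fold changes from -0.44 to 0.26. No cyclin of 25 was called by limma or in the authors' deposited table (1 higher and 6 lower at an unadjusted p under 0.05), HIS1-3, a drought-inducible linker histone, was the 1 histone called of 45 (1.34 ± 0.11), and none of 7 reference genes was called by either (2 higher and 2 lower at an unadjusted p under 0.05). ACT2 lay at -0.55 ± 0.09 and UBQ10 at 0.42 ± 0.09. Receptor-like kinases fell more often than they rose, 22 against 8 of 256. These shares, 8.59% lower and 3.13% higher, stand against 3.11% and 7.80% of all genes tested. Fewer of them fell without the larger mock library, and falls then hardly outnumbered rises. The excess of falls therefore depended on that library. CRK30 had no read with ABA and 19.4 and 21.8 normalized counts in mock. Leaf mesophyll markers summed to 291656 and 348705 with ABA and 349492 and 420338 in mock, with none of 6 called by limma or in the authors' deposited table (0 higher and 1 lower at an unadjusted p under 0.05).

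**Figure D4:**
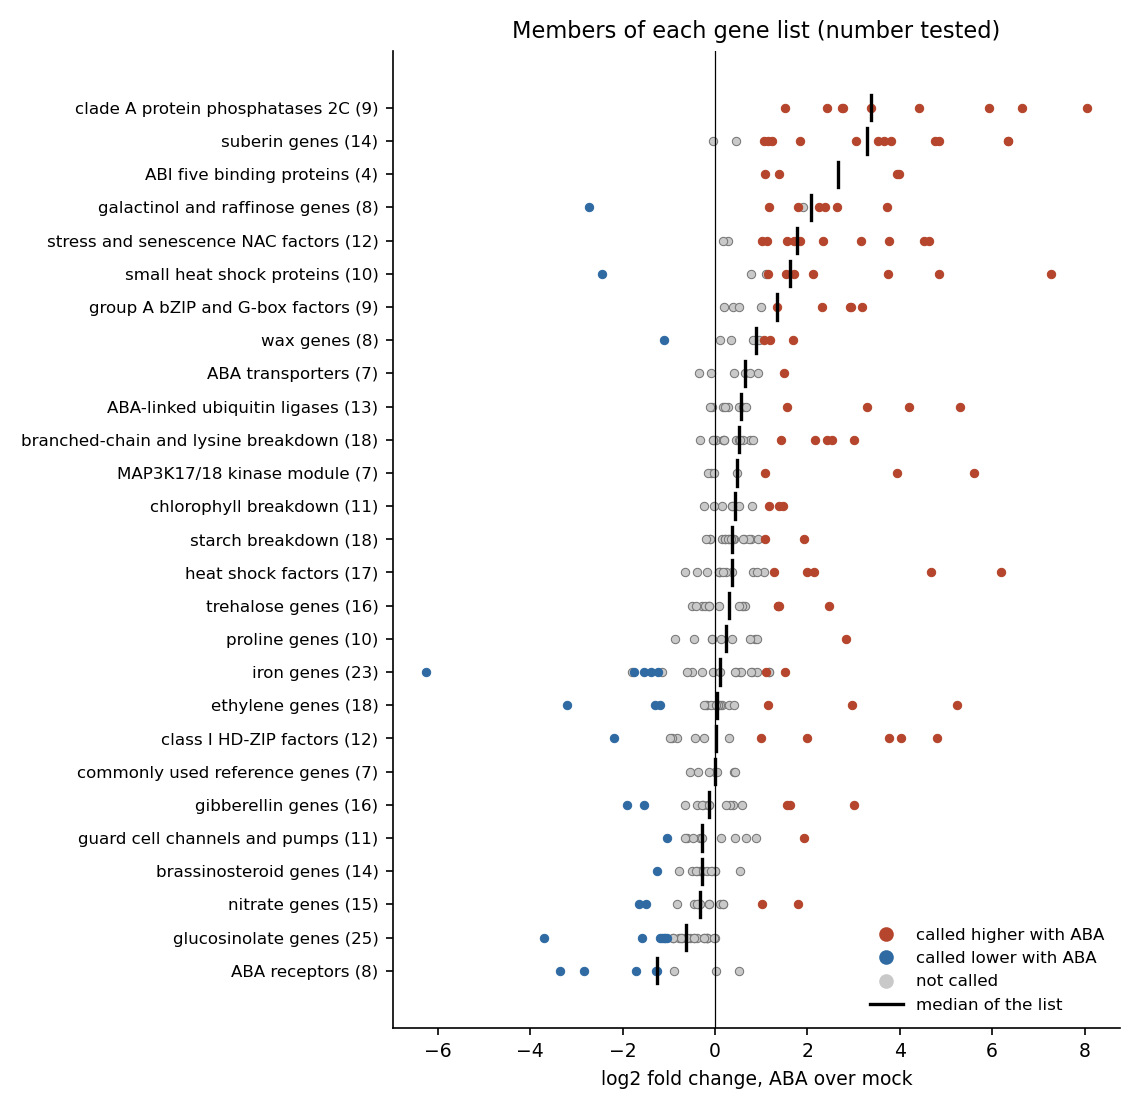
Each point is 1 tested member of a gene list at its log2 fold change, ABA over mock (horizontal axis), with lists ordered by their median (black bar) and the number tested in parentheses. Red points were called higher with ABA, blue points lower and grey points were not called. The phosphatases and suberin genes lie farthest right, with medians of 3.37 and 3.29, and the receptors farthest left at -1.26.

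Of 191 tested long non-coding RNAs 13 rose and 1 fell (6.81% and 0.524%, against 7.80% and 3.11% of all genes). All 14 share bases with another annotated gene, and for 12 of them that gene was called the same way. The reads of such pairs cannot be told apart without strand. AT3G12502 rose by 3.69 over HCHIB, a basic chitinase, which rose by 3.81, and AT3G24518 rose by 1.93 over HSFC1, which rose by 1.98. In the annotation class ncRNA, 7 of 90 tested genes rose and 1, the trans-acting siRNA gene TAS3, fell. These shares, 7.78% and 1.11%, stand against 7.80% and 3.11% of all genes tested. TAS3 had 104 and 49.0 normalized counts with ABA and 136 and 222 in mock. Its call was lost without the smaller library of either group and in the authors' deposited table. None of the called genes of this class was called in every alternative, and none shares bases with another annotated gene. The miRNA precursor gene MIR824, whose miRNA targets a MADS-box gene of stomatal development, had 264 and 240 normalized counts with ABA and 33.7 and 20.7 in mock (3.20 ± 0.24). It shares 467 bases, 67.8% of the gene, with AT4G24413 on the other strand, so its reads are uncertain in the same way. MIR167d, of the family that targets auxin response factors, fell to 19.1 and 19.6 with ABA against 49.0 and 77.4 in mock (-1.62 ± 0.26). The same limit holds for coding genes. The lists and naming rules gave 366 called genes, coding and non-coding together. Of these, 41 share at least 20% of their bases with another annotated gene. Among the coding ones described above are GER1, AT1G72600, HSFC1, AT1G26250, ABCG2, ABF4, KCS2, HSP17.4, DGR2, BETA-TIP, DELTA-TIP, AFP2, TUB1 and TIP3;1.

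The core of the ABA response element was more frequent in promoters of genes that rose. Within 250 bases before the gene start, ACGTG on either strand stood in 622 of 1507 promoters of protein-coding genes called higher (41.3%, 95% Wilson interval 38.8 to 43.8). It stood in 122 of 603 of those called lower (20.2%, 17.2 to 23.62) and in 4593 of 19158 of all genes tested (24.0%, 23.4 to 24.6). The share was higher among larger rises, 48.4% of 694 genes at a log2 fold change of at least 2, 51.7% of 352 at 3, 55.0% of 169 at 4 and 56.6% of 83 at 5. These sets are nested. The longer form ACGTGTC stood in 13.1% of promoters of genes called higher, 0.995% of those called lower and 4.44% of all tested. ACGTGGC stood in 8.69%, 1.16% and 4.04% of the same sets, and the G-box CACGTG, which contains the core, in 17.0%, 4.98% and 7.64%. Over 500 bases the core stood in 55.6% of promoters of genes called higher, 34.2% of those called lower and 36.4% of all tested. A match describes these letters and not a site of binding. The 4 printed promoters of genes that rose hold between 4 cores (LEA7) and none (BGLU24).

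**Figure D5:**
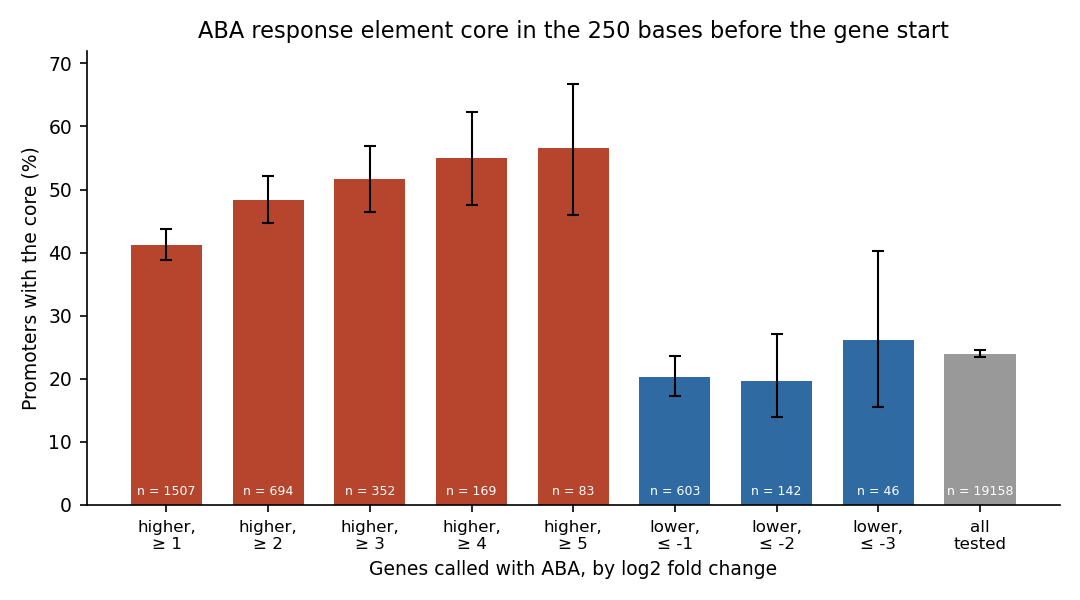
Percent of promoters (vertical axis) with the ABA response element core in the 250 bases before the gene start, for protein-coding genes called higher or lower with ABA at increasing log2 fold change and for all genes tested, with 95% Wilson intervals as error bars and the number of promoters at the foot of each bar. The share lies at 41.3% for genes called higher, 20.2% for genes called lower and 24.0% for all tested.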

How the data were processed

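Polyadenylated RNA of whole seedlings was sequenced as single reads of 50 bases, per the labels' protocols. Whether the library kit kept strand is not given there. Tools named in the submitters' processing notes are DESeq 1.8.3, TopHat 1.4.1 and HTSeq, and the build named is TAIR10; their roles are not given. Per the file headers, the deposited values are group means, here a signal. Their spacing shows that each averages the scaled read counts of 2 libraries. The authors' deposited p-values and adjusted p-values of ABA against mock served only as an alternative. Unassigned reads made 48.2% to 48.5% of the deposited totals and ambiguous reads 0.278% to 0.315%, and both were left out.

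A deposited mean adds up the reads of its 2 libraries, each read weighted by the inverse size factor, and 100% of values above 0 in all 4 groups had a single split into the reads of 2 libraries. Size factors were 1.15 and 0.816 with ABA and 0.979 and 0.917 in mock. Which library is which replicate is not known. Limma 3.58.1 (R 4.3.3, moderated test with trend) was fitted to log2(normalized count + 1) of all 8 libraries in 4 groups, with 4 residual and 5.33 prior degrees of freedom and Benjamini-Hochberg adjustment over 19616 genes with a mean of at least 10 in the ABA and mock libraries. Recovery and fit were also run on simulated data with the same dispersion for every gene. These data held no gap like that between the mock libraries, so they show nothing about calls that depend on it. Of the gene rows 31912 matched the RefSeq TAIR10.1 annotation, from which names, positions and promoters come, and 766 did not.

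The genes and lists were chosen with earlier results of these data known. Genes were named by rule: the 10 largest gains and losses in normalized counts, up to 4 called members of largest fold per list or family and members that are not called where counted, the 10 transcription factors of largest rise and 5 of largest fall, genes silent in 1 group, runs of at least 4 neighbours, and 5 non-coding genes. Genes outside the rule were named after their values were seen. Alternatives were other pseudocounts, minimum means, scaling, the 2 groups alone, the deposited adjusted p, no fold limit, and leaving out each library.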

Additional observations from a re-analysis of the deposited data

How the results depend on the processing

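With adjusted p alone and no fold limit the calls numbered 3585 higher and 2771 lower, and with a minimum mean of 50 the lower calls numbered 376, since fewer genes were tested. In the other alternatives the counts stayed within 1.5 times. Leaving out each ABA or mock library in turn gave 1340 to 1631 higher and 501 to 710 lower calls. Upper-quartile scaling, under which the median gene's fold change shifted by -0.09 (log2), gave 1383 higher and 725 lower. The log2 fold change of SESA1 ran between -2.31 and 2.23 when 1 library was left out, turning with the mock library kept. No paired analysis was possible because the deposited columns carry no replicate numbers. With 2 libraries a group, the p-values rest on a spread shared across genes and groups, a fit without 1 library assumes that the lone one varies like the others, and genes of few reads are limited by depth: under the minimum mean no gene was tested. Promoter shares moved with the motif and window as given above, where the G-box and the 500 base window were chosen after seeing the data.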
